A study of Mus musculus with 12 samples.

Results

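Blood lineage genes were followed in sorted hematopoietic stem cells (HSCs) of young mice, of aged mice, and of aged mice whose cells had been treated with CASIN. The set consists of 41 genes that are known for 1 of 4 blood lineages and were taken by symbol from the expression table, which has 22548 genes. Of these, 40 had a row, namely 8 of 9 erythroid genes, 4 of 4 platelet genes, 15 of 15 myeloid genes and 13 of 13 lymphoid genes; Hba-a1, an alpha globin gene, had none.

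HSCs are multipotent, and before a cell commits to a lineage it can transcribe genes of several lineages at a low level, which is called lineage priming. The erythroid genes include the transcription factors Gata1 and Klf1, and the platelet genes encode subunits of the receptor for von Willebrand factor and, with Ppbp, a chemokine of platelet granules. The myeloid genes include the cytokine receptors of granulocytes and monocytes and the proteins of their granules, and the lymphoid genes run from Il7r and the recombinase genes to receptor components of B and T cells. With age, the output of the stem cell pool is known to shift from lymphoid towards myeloid cells and platelets.

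The study kept 12 RNA-seq libraries for this comparison, all from C57BL/6 mice. Young HSCs came from animals of 2 to 4 months (n = 4, replicates 2 to 5) and aged HSCs from animals of 20 to 26 months (n = 5, replicates 0 and 2 to 5). The third group held aged HSCs treated with 5 µM CASIN, a small molecule that inhibits the activity of the RhoGTPase Cdc42 (n = 3, replicates 1 to 3). Cells of all groups, untreated ones included, spent 16 h in salt solution with serum at 3% O2 before lysis. The cells were long-term HSCs sorted from marrow as lineage-negative, c-kit and Sca-1 positive, Flk2-negative and CD34-negative or low. The labels give at least 200 cells to a library, and the methods of the study describe a larger pool. The lineage antibodies recognised CD8a among other antigens, and CD127, the product of Il7r, was stained as well. Each library was a pool of cells, so that a low value cannot be assigned to fewer cells with a transcript or to less transcript per cell.

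The values were log2 expression values that the authors had quantile-normalised. No counts were given and the depth is unknown. Within a library, many genes shared its lowest value, and a gene above it was called detected. Of all genes, 27.0% to 42.9% were detected in young libraries, 50.8% to 78.1% in aged libraries, and 30.4%, 88.8% and 32.3% in CASIN replicates 1, 2 and 3. CASIN replicate 2 therefore stood apart from the other two, and results that rest on it are given with and without it. The lowest value was 0.43 to 0.67 in young, 0.018 to 0.23 in aged and 0 to 0.63 in CASIN libraries, so that a gene detected nowhere still differed by 0.42 between young and aged and by 0.26 between CASIN-treated and aged HSCs. The transcripts of the sort markers were scarce: Kit (c-kit) and Ly6a (Sca-1) were at the lowest value in every young library and in CASIN replicates 1 and 3, and were detected in 3 of 5 aged libraries each. Itgam, which encodes the depleted lineage antigen CD11b, stood at 7.48 or more in all 12 libraries. The stem cell factors Meis1 and Runx1 were detected in all 12 as well. The values are not known to be scaled by gene length, and levels are therefore not compared between genes.

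Promoters are shown for the lineage genes with an unadjusted p under 0.05 in any comparison for which RefSeq had an entry, because these are the genes on which the group comparisons turn. They are Gata3, a factor of T cell development (chr2:9878601-9878850), Ermap, an erythroid membrane protein (chr4:119189996-119190245), Lyz2, lysozyme of granulocytes and macrophages (chr10:117282273-117282522), and Ctsg, cathepsin G of the primary granules (chr14:56102575-56102824). Each run holds the 250 bases before a transcription start given by RefSeq on the minus strand of GRCm38.p6, 5′ to 3′. The Gata3 run lies inside the gene as placed by GENCODE M21 (chr2:9857078-9890034, mm10), so the upstream end of that gene is not covered. Capitals mark matches on either strand to short cores of factors that act in blood. For PU.1 the letters searched were GAGGAA. For RUNX factors they were TGTGGT. For GATA factors they were AGATAA, and the cores do not overlap in the runs shown.
Gata3: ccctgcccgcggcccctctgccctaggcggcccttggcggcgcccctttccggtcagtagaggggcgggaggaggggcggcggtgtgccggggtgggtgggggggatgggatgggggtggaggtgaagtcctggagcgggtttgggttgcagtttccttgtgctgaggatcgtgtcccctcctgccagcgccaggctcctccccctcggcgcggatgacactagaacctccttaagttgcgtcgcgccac
Ermap: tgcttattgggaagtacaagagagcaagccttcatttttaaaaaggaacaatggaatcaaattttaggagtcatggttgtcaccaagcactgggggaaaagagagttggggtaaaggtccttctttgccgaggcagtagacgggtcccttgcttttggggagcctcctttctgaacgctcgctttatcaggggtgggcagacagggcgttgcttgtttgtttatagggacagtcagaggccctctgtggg
Lyz2: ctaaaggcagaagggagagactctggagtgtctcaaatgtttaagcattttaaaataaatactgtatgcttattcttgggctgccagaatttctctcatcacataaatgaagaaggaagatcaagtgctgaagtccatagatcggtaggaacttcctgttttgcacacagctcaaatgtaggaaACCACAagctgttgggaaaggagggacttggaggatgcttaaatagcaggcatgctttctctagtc
Ctsg: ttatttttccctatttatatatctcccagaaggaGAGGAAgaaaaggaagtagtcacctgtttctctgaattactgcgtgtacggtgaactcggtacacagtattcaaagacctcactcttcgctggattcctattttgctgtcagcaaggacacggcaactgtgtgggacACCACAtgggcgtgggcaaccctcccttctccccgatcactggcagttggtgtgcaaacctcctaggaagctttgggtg

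Ctsg held 1 PU.1 match and 1 RUNX match, Lyz2 held 1 RUNX match, and Gata3 and Ermap held none of these letters in the window. GC content was 70.0% for Gata3 against 49.2%, 41.6% and 48.8% for Ermap, Lyz2 and Ctsg. RefSeq promoter entries, counted over 250 bases before to 50 bases after a start on both strands, were found for 35 of the 41 genes, all except Cebpe, Car1, Car2, Cd79b, Csf1r and Cd4. The PU.1 letters were in 18 of 35 (51.4%) lineage genes and in 31.3% of 27025 genes with an entry. By lineage they were in 8 of 13 myeloid genes (including Mpo, Elane, Prtn3 and Csf3r) and 6 of 11 lymphoid genes. They were in 2 of 4 platelet and 2 of 7 erythroid genes. The RUNX letters were in 10 of 35 (28.6%) against 18.9% of all genes, and the GATA letters in 5 of 35 (14.3%) against 12.7%. None of these shares was tested.

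Lineage genes were detected about as often as genes in general, but the lineages were not alike. Of the 40 genes, 34.4% ± 4.73 (SD, n = 4) were detected in young libraries, 62.5% ± 8.66 (SD, n = 5) in aged libraries and 53.3% ± 27.5 (SD, n = 3) in CASIN libraries, beside 34.3% ± 7.56, 62.6% ± 11.9 and 50.5% ± 33.2 of all genes. Counted per library, this was 14, 15, 15 and 11 genes in young, 28, 26, 19, 26 and 26 in aged, and 14, 34 and 16 in CASIN libraries. The young and aged counts did not overlap, and neither did the shares of all genes.

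Lymphoid genes were detected more often than genes in general in 12 of 12 libraries, at 51.9% ± 9.68 in young, 86.2% ± 8.43 in aged and 79.5% ± 17.8 in CASIN libraries. Myeloid genes were below all genes in 10 of 12 libraries, at 25.0% ± 3.33, 46.7% ± 10.5 and 42.2% ± 32.9. Erythroid genes were below in 10 of 12 and platelet genes in 9 of 12. The lymphoid genes were also the longest, with a median of 3978 exonic bases (range 1431 to 9756) against 1316 for the myeloid, 1585 for the platelet and 2412.5 for the erythroid genes. Over all genes with a length, those detected in 9 to 12 libraries had a median of 5621 exonic bases and those detected in 0 to 3 libraries 1750. The part of length in the difference between lineages was not tested.

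**Figure D1:**
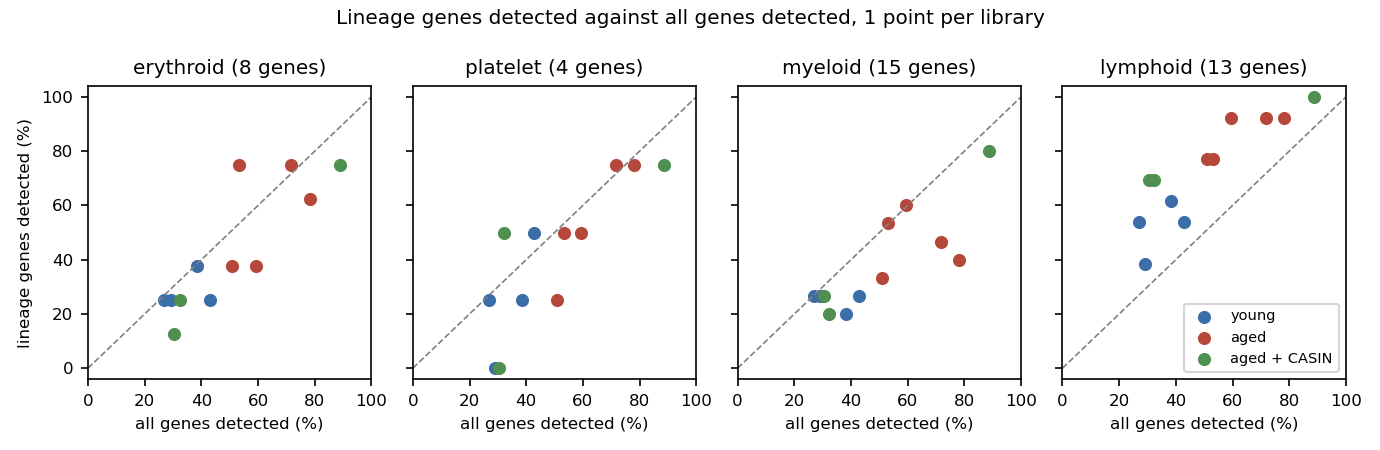
Percent of erythroid, platelet, myeloid and lymphoid genes detected (y axis) against the percent of all genes detected (x axis), with 1 point per library, coloured by group, and a dashed line of equality. All 12 points of the lymphoid genes lie above the line and 10 of 12 points of the myeloid genes below it.

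No lineage gene passed an adjusted p of 0.05 in any of the 3 comparisons (limma over all 22548 genes, Benjamini-Hochberg adjustment). The smallest adjusted p of a lineage gene was 0.516 between young and aged HSCs and 0.876 between CASIN-treated and aged HSCs, where 0.0177% and 0.0222% of all genes passed (4 and 5 genes). Between young and CASIN-treated HSCs 0% of all genes passed, although 1.39% and 2.9% had an unadjusted p under 0.05 with a higher or lower value in young. All calls given from here on are therefore unadjusted and serve as a description. Both comparisons with aged HSCs share the same 5 aged libraries.

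Between young and aged HSCs, 3 lineage genes had an unadjusted p under 0.05 with a higher value in young (Gata3, Cd4 and Lyz2) and 1 with a lower value (Ermap), where 2.13% of all genes were higher and 3.2% lower by the same threshold. Of the 40 genes, 18 were above 0 and 22 below 0, with a median log2 difference of -0.11 beside -0.017 over all genes. By lineage, the median difference of young minus aged was -0.84 for the erythroid genes (7 of 8 below 0), 0.18 for the platelet genes, 0.42 for the myeloid genes (9 of 15 above 0) and -0.59 for the lymphoid genes (8 of 13 below 0). The myeloid median is that of Prtn3 and Ctsg, which no young or aged library detected, and it equals the 0.42 that the lowest values alone give. It was 0 when all libraries were given 1 common lowest value.

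Between CASIN-treated and aged HSCs, 3 lineage genes had an unadjusted p under 0.05 with a higher value after CASIN (Cd4, Gata3 and Ctsg) and 0 with a lower value, beside 2.48% of all genes higher and 1.92% lower. Without CASIN replicate 2 there were 6 such genes, of which Cd4, Gata3, Tcf7 and Cebpe were higher and Cd8a and Ermap lower, and the share of all genes at this threshold was then 7.18% in place of 4.40%. The median differences were -0.95 for the erythroid, 0.11 for the platelet, 0.071 for the myeloid and 0.19 for the lymphoid genes, beside -0.038 for all genes. Among the lymphoid genes, the 5 of T cells had a median of 2.17 after CASIN, against 0.22 for young minus aged. These medians are the values of single genes, Gata3 and Cd8a. After CASIN, 4 of the 5 were above 0 and Cd8a was below 0 (-1.74). The 4 early lymphoid and 4 B cell genes had medians of -0.21 and 0.09 after CASIN. Between young and CASIN-treated HSCs, 0 lineage genes had an unadjusted p under 0.05.

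**Figure D2:**
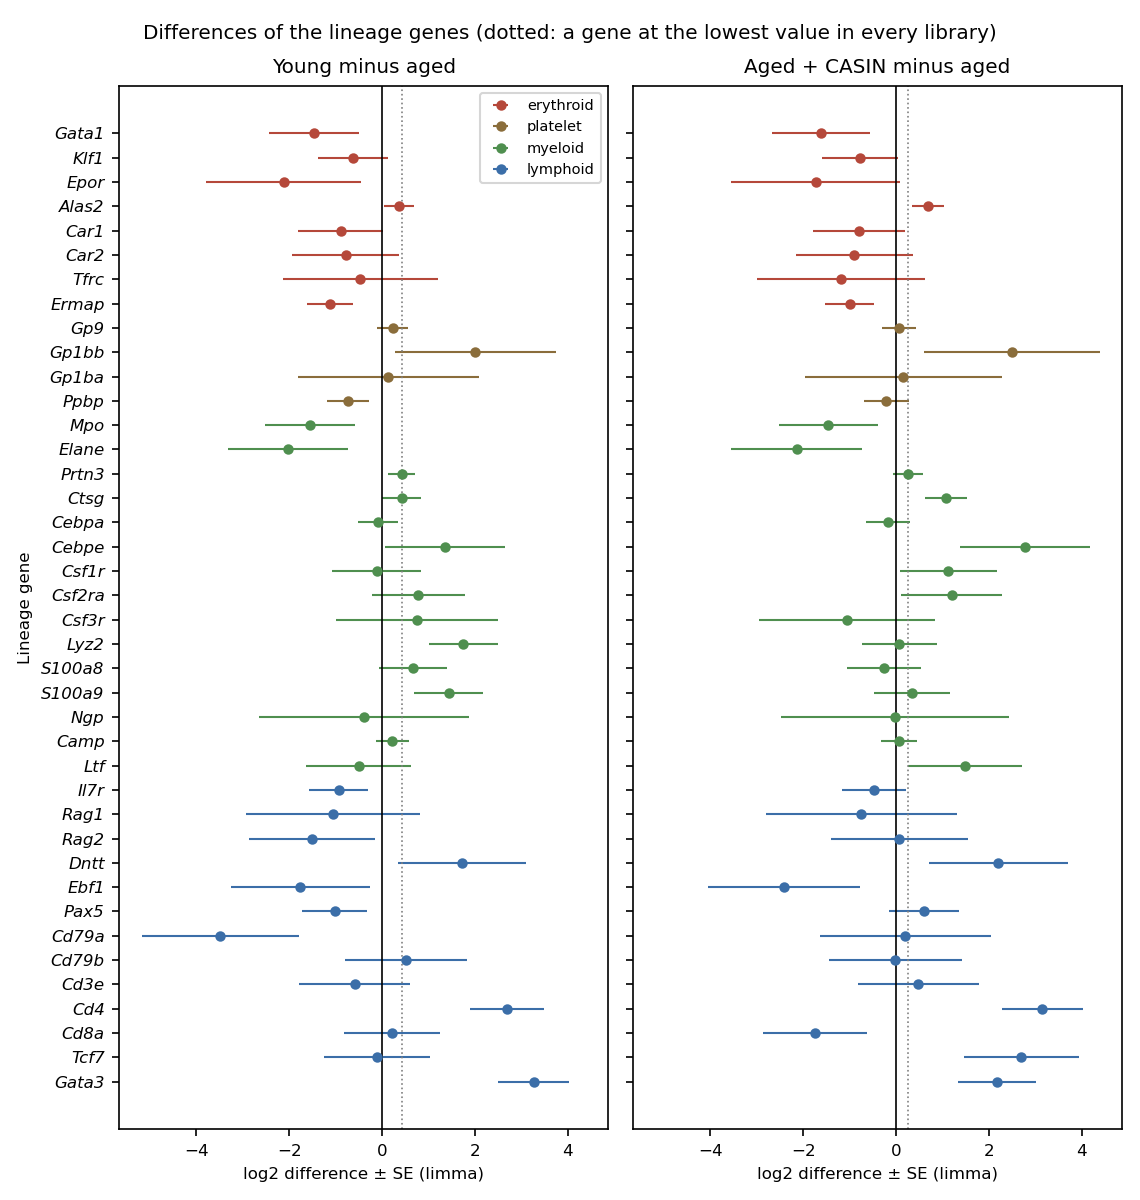
Log2 differences of the 40 lineage genes with their SE from limma (x axis), young minus aged on the left and CASIN-treated minus aged on the right, coloured by lineage; the dotted line is the difference of a gene that is at the lowest value of every library (0.42 and 0.26). Gata3 and Cd4 lie to the right in both panels, and 7 of 8 erythroid genes lie left of 0 in each.

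**Figure D3:**
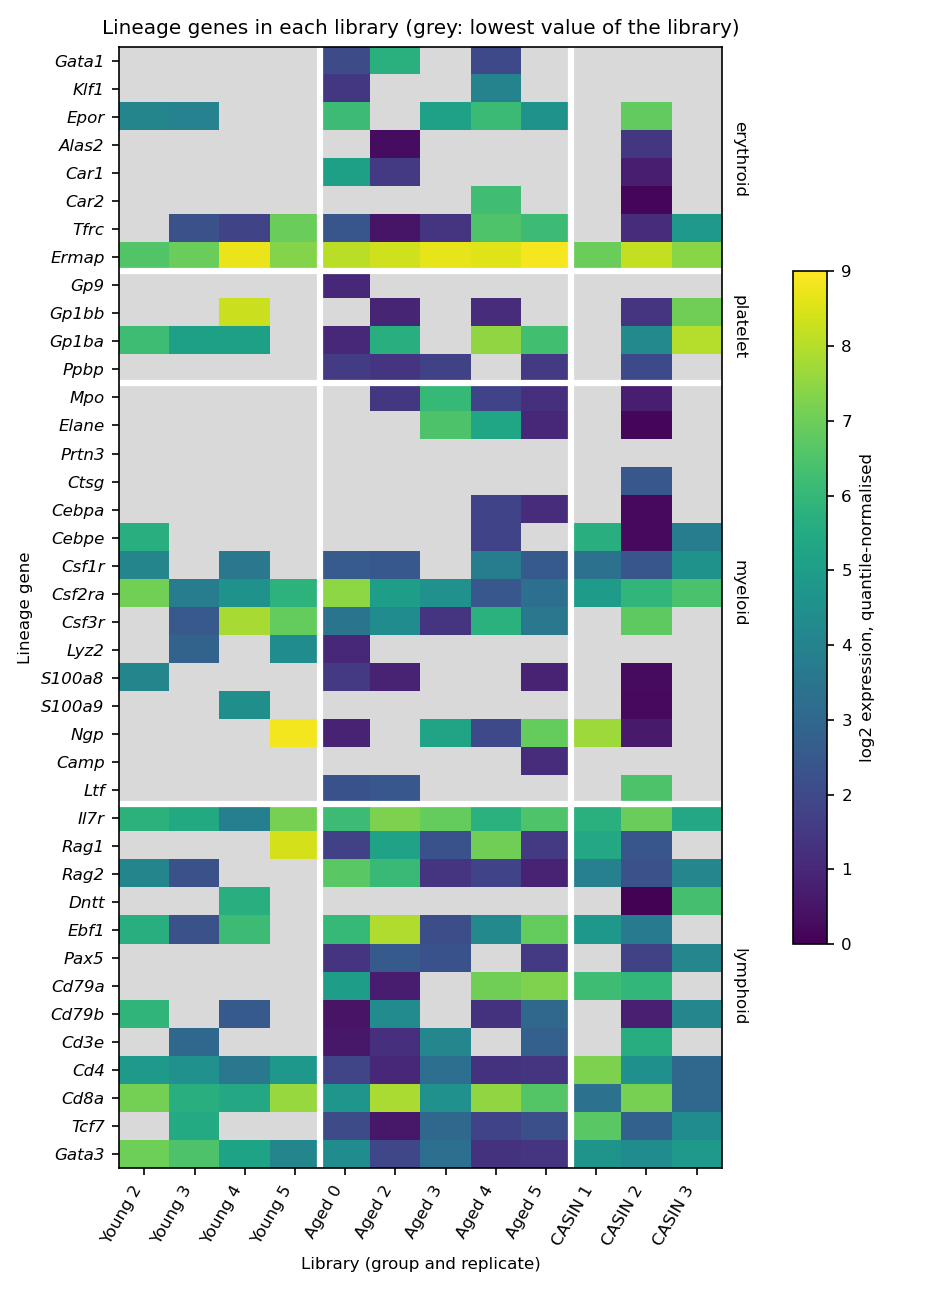
Log2 expression of the 40 lineage genes (rows, by lineage) in the 12 libraries (columns, by group), with grey where the gene is at the lowest value of the library. Ermap, Csf2ra, Il7r, Cd4, Cd8a and Gata3 are coloured in every column, Prtn3 in none, and CASIN replicate 2 has the most coloured cells (34 of 40).

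The erythroid regulators Gata1 and Klf1 were detected in aged libraries only, where genes in general were also detected more often. The mean share detected was 34.3% of all genes in young and 62.6% in aged libraries. For the erythroid genes it was 28.1% and 57.5%. Gata1, the master factor of red cell and platelet precursors, was detected in no young library, in 3 of 5 aged libraries (2.05, 5.71 and 1.97 in aged replicates 0, 2 and 4) and in no CASIN library. Klf1, which activates globin genes, was detected in aged replicates 0 and 4 only, at 1.46 and 4.04. Neither difference was larger than the spread between replicates (unadjusted p = 0.159 and 0.429, limma, young minus aged).

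Epor, the erythropoietin receptor, stood at 4.11 and 3.99 in young replicates 2 and 3 and at the lowest value in young replicates 4 and 5. It stood at 6.18, 5.15, 6.12 and 4.62 in aged replicates 0, 3, 4 and 5 and at 0.018, the lowest value, in aged replicate 2. In the CASIN group it was detected in replicate 2 alone, at 6.84. The groups overlapped, and the mean was lower in young than in aged HSCs by a log2 difference of -2.12 (95% confidence interval -5.80 to 1.55, limma). Tfrc, the transferrin receptor that brings iron into the cell, was detected in 3 young, 5 aged and 2 CASIN libraries and ranged from 0.51 to 6.98 where it was detected.

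The erythroid enzymes were at the lowest value in most libraries. Alas2, the erythroid enzyme that starts haem synthesis, was above the lowest value in 2 libraries (0.29 in aged replicate 2 and 1.46 in CASIN replicate 2). Car1 and Car2, the carbonic anhydrases of red cells, were detected in 3 and 2 libraries, with the highest values of 5.13 in aged replicate 0 for Car1 and 6.23 in aged replicate 4 for Car2. No young library held either.

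Ermap, an erythroblast membrane protein of the immunoglobulin superfamily, was the erythroid gene detected in every library. It stood at 6.55, 6.95, 8.73 and 7.31 in young replicates 2 to 5, at 8.07, 8.35, 8.68, 8.56 and 8.88 in aged replicates 0 and 2 to 5, and at 6.97, 8.17 and 7.40 in CASIN replicates 1 to 3. The aged values were close together, 3 of 4 young values were below all of them, and young replicate 4 was within them. The mean was 7.39 ± 0.95 (SD, n = 4) in young against 8.51 ± 0.31 (SD, n = 5) in aged HSCs, a log2 difference of -1.12 ± 0.49 (SE, unadjusted p = 0.0424, adjusted p = 0.764, limma). With CASIN the difference to aged was -0.999 ± 0.53 (SE, unadjusted p = 0.0872), and -1.33 without CASIN replicate 2. The young minus aged difference was -0.67 after centring on genes detected in all libraries (unadjusted p = 0.235, limma) and -0.70 with the share of genes detected as a covariate (unadjusted p = 0.247). Leaving out young replicate 2, 3 or 5, aged replicate 2, 3, 4 or 5, or CASIN replicate 3 gave -0.84 to -1.16, with unadjusted p from 0.0519 to 0.13.

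The median young minus aged log2 difference of 19 other erythroid genes with a row was 0.42, which equals what the lowest values alone give. Of these genes, 3 were detected in no library. By unadjusted p under 0.05, 0 differed for young minus aged and 1 was higher after CASIN (limma). This gene was Epb4.2, a protein of the red cell membrane skeleton, at 4.15 to 7.36 in CASIN libraries against 0.86 to 2.21 in aged libraries (log2 difference 3.75 ± 0.95, SE, unadjusted p = 0.0024, adjusted p = 0.751). It was lower in young than in CASIN-treated HSCs by a log2 difference of -3.39 (unadjusted p = 0.006, limma). The adult beta globins Hbb-bt and Hbb-bs were at the lowest value in all 12 libraries.

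Platelet genes were 3 subunits of the von Willebrand factor receptor and 1 granule chemokine. Gp1ba, which carries the binding site, stood at 6.22, 5.10, 5.12 and 0.65 in young replicates 2 to 5, the last being the lowest value. It stood at 1.01, 5.66, 0.23, 7.49 and 6.29 in aged replicates 0 and 2 to 5, and at 0.63, 4.24 and 8.01 in CASIN replicates 1 to 3. The groups covered the same range, and the young minus aged difference was 0.13 (95% confidence interval -4.17 to 4.44, limma). Gp1bb was at or near the lowest value in all libraries other than young replicate 4 (8.28) and CASIN replicate 3 (7.05); where it was detected otherwise it reached 1.35 at most. Gp1bb shares 1902 of its 2087 exonic bases with Sept5 on the same strand (GENCODE M21, mm10), so that reads of these genes could have been divided between them, and its values are uncertain. Gp9 was detected in aged replicate 0 alone (1.01). Ppbp was detected in 4 of 5 aged libraries (1.35 to 1.78) and in CASIN replicate 2 (2.03) but in no young library (young minus aged -0.73 ± 0.45, SE, unadjusted p = 0.13, limma). Of all genes, a mean of 34.3% were detected in young and 62.6% in aged libraries.

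Of 17 other platelet genes, 4 had an unadjusted p under 0.05 for young minus aged (limma; 1 higher and 3 lower). Gp5, a further partner of the same receptor, was at the lowest value in all 4 young libraries and at 0.89 to 4.62 in aged libraries (log2 difference -2.05 ± 0.61, SE, unadjusted p = 0.0069, adjusted p = 0.65). After CASIN, Gp5 was at 0.52 to 0.63 and the difference was -2.04 (unadjusted p = 0.0115, adjusted p = 0.948). Itgb3, the integrin beta chain of the fibrinogen receptor, was detected in all 12 libraries and differed by -1.25 between young and aged (unadjusted p = 0.0399) and by -1.43 between CASIN-treated and aged HSCs (unadjusted p = 0.0327, limma). Rab27b, which acts in granule release, was lower in young than in aged HSCs by a log2 difference of -2.63 (unadjusted p = 0.0303, limma). Treml1 was higher by 3.58 (unadjusted p = 0.0433), with values of 7.54 and 8.19 in young replicates 2 and 3. Pf4 was detected in CASIN replicate 2 alone, at 2.25, and differed by 1.01 after CASIN (unadjusted p = 0.0391). Without that library it was detected nowhere in these groups and differed by 0.46 (unadjusted p = 0.178), which is the gap between the lowest values. Rab27b was also lower in young than in CASIN-treated HSCs, by a log2 difference of -2.66 (unadjusted p = 0.0493), and -2.59 without CASIN replicate 2 (unadjusted p = 0.102, limma).

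Myeloid genes were detected less often than lymphoid genes and their values came from few libraries. The factor Cebpa, which directs granulocyte and monocyte fate, was above the lowest value in aged replicates 4 and 5 (1.80 and 1.16) and in CASIN replicate 2 (0.22). Cebpe, a factor of late granulocyte maturation, stood at 5.68 in young replicate 2, at 1.80 in aged replicate 4, and at 5.67, 0.21 and 3.82 in CASIN replicates 1 to 3. Its CASIN minus aged difference was 2.78 ± 1.40 (SE, unadjusted p = 0.0733, limma).

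The receptors of the myeloid cytokines were the part of this lineage that was detected most. Csf2ra, the alpha chain of the GM-CSF receptor, was detected in all 12 libraries, at 7.10, 3.82, 4.62 and 5.83 in young replicates 2 to 5, at 7.48, 5.02, 4.54, 2.46 and 3.30 in aged replicates 0 and 2 to 5, and at 4.94, 5.91 and 6.42 in CASIN replicates 1 to 3. The groups overlapped, with a young minus aged difference of 0.78 (95% confidence interval -1.43 to 2.99) and a CASIN minus aged difference of 1.20 (SE 1.09, limma). Csf3r, the G-CSF receptor, stood at 0.67, 2.498, 7.82 and 6.89 in young replicates 2 to 5, at 3.48, 4.38, 1.36, 5.74 and 3.62 in aged replicates 0 and 2 to 5, and at 0.63, 6.77 and 0.58 in CASIN replicates 1 to 3. It was detected in all 5 aged libraries and in 1 CASIN library, and young replicates covered the widest range of the 3 groups. Csf1r, the M-CSF receptor, was detected in 2 young, 4 aged and 3 CASIN libraries, at 2.40 to 4.62. It shares 873 exonic bases with Hmgxb3 on the other strand, and it is not stated whether reads were assigned by strand.

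Primary granule genes mark granulocyte and monocyte precursors. Mpo, myeloperoxidase, was detected in no young library, in 4 of 5 aged libraries (1.45, 6.02, 1.80 and 1.21 in replicates 2 to 5) and in CASIN replicate 2 (0.75). Elane, neutrophil elastase, was detected in no young library, at 6.49, 5.30 and 1.03 in aged replicates 3 to 5, and at 0.12 in CASIN replicate 2. The mean share of all genes detected was 34.3% in young and 62.6% in aged libraries. The young minus aged differences of -1.55 ± 0.98 for Mpo and -2.02 ± 1.30 for Elane (SE) were within the spread between replicates (unadjusted p = 0.141 and 0.148, limma). Aged replicate 3, where both genes were highest, was also the aged library with the fewest lineage genes detected (19). Prtn3, proteinase 3, was at the lowest value in all 12 libraries. Ctsg was detected in CASIN replicate 2 alone, at 2.46, and the CASIN minus aged difference of 1.08 ± 0.46 (SE, unadjusted p = 0.0384, limma) was 0.46 without that library (unadjusted p = 0.178).

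Lyz2 was detected in young replicates 3 and 5 (2.85 and 4.37), in aged replicate 0 (1.01) and in no CASIN library. It held values shared by 305 and 211 genes in these young libraries and by 389 genes in the aged one. Its young minus aged difference was 1.75 ± 0.74 (SE, unadjusted p = 0.0391, adjusted p = 0.764, limma), and 1.40 with a common lowest value (unadjusted p = 0.0672). It was 1.49 without young replicate 3 and 0.99 without young replicate 5 (unadjusted p = 0.101 and 0.124, limma), and the p was also over 0.05 without any one of aged replicates 2 to 5. The calprotectin genes S100a8 and S100a9 were each detected in 1 young library, at 4.11 in replicate 2 and 4.50 in replicate 4, and S100a8 reached 1.52 and S100a9 the lowest value in aged libraries. Of the secondary granule genes, Ngp stood at 8.85 in young replicate 5, at 5.24 and 6.87 in aged replicates 3 and 5, at 7.69 in CASIN replicate 1, and at 1.97 at most in the other libraries. Ltf, lactoferrin, was highest in CASIN replicate 2 (6.47), and Camp was detected in aged replicate 5 alone (1.16). No granule gene was detected in every library of a group.

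Of 33 other myeloid genes, 1 had a higher young mean and 2 a lower young mean than aged HSCs at an unadjusted p under 0.05 (limma; median log2 difference 0.078). Itgb2, the beta chain that pairs with CD11b, and Emr1, the F4/80 antigen of macrophages, were at the lowest value in all 4 young libraries and differed by -2.15 and -1.78 (unadjusted p = 0.0269 and 0.0275). After CASIN 0 of the 33 had an unadjusted p under 0.05.

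Lymphoid genes were the most regularly detected. Il7r, the receptor of the lymphoid cytokine interleukin 7 and a stained antigen of the sort, stood at 5.77, 5.48, 3.88 and 7.15 in young replicates 2 to 5, at 6.18, 7.21, 6.88, 5.74 and 6.51 in aged replicates 0 and 2 to 5, and at 5.70, 6.94 and 5.44 in CASIN replicates 1 to 3. The groups overlapped, with a young minus aged difference of -0.93 (95% confidence interval -2.35 to 0.48, limma) and a CASIN minus aged difference of -0.48 (-2.02 to 1.07). Rag1 and Rag2, the recombinase genes, were detected in all 5 aged libraries each, Rag1 at 1.54 to 7.05 and Rag2 at 0.89 to 6.70. In young libraries Rag1 was detected in replicate 5 alone, at 8.43, and Rag2 in replicates 2 and 3, at 4.11 and 2.22. Both overlap B230118H07Rik in their exons, by 80 and 208 bases. Dntt, the terminal transferase of early lymphoid cells, was detected in young replicate 4 (5.68) and CASIN replicates 2 and 3 (0.066 and 6.34) and in no aged library.

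Among the B cell genes, Cd79a, the alpha chain of the B cell receptor complex, was detected in no young library, in 4 of 5 aged libraries (5.03, 0.68, 7.05 and 7.26 in replicates 0, 2, 4 and 5) and in CASIN replicates 1 and 2 (6.19 and 5.97). The difference of young minus aged was -3.49 ± 1.69 (SE), the most negative of the 40 genes, with an unadjusted p of 0.0642 (limma). Pax5, which fixes B cell identity, was likewise detected in no young library, in 4 of 5 aged libraries at 1.37 to 2.54, and in CASIN replicates 2 and 3 at 1.79 and 4.15. Genes in general were also detected less often in young than in aged libraries (mean shares 34.3% and 62.6%). Ebf1, an earlier B cell factor, was detected in 3 young libraries (2.22 to 6.18), in all 5 aged libraries (2.15 to 7.93) and in 2 CASIN libraries. Cd79b was detected in 2 young, 4 aged and 2 CASIN libraries. In the aged group these were the same libraries as for Cd79a, whereas in the young and CASIN groups the pair differed.

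Gata3 had the smallest p of the lineage genes. It stood at 7.02, 6.47, 5.23 and 4.15 in young replicates 2 to 5, at 4.39, 1.91, 3.30, 1.30 and 1.36 in aged replicates 0 and 2 to 5, and at 4.64, 4.37 and 4.85 in CASIN replicates 1 to 3. Young replicate 5 was below aged replicate 0, and the CASIN values lay within the young range. Young libraries had a mean of 5.72 ± 1.29 (SD, n = 4), aged libraries of 2.45 ± 1.35 (SD, n = 5) and CASIN libraries of 4.62 ± 0.24 (SD, n = 3). The young minus aged difference was 3.26 ± 0.77 (SE, unadjusted p = 0.0015, adjusted p = 0.516, limma) and the CASIN minus aged difference 2.17 ± 0.84 (SE, unadjusted p = 0.026, adjusted p = 0.948). Without aged replicate 4 or 5, or without CASIN replicate 1 or 3, the CASIN minus aged difference of Gata3 was 1.88 to 2.16, with unadjusted p from 0.0550 to 0.0691 (limma). With a prior variance that follows the mean level (limma trend) its unadjusted p was 0.125. Young and CASIN-treated HSCs differed by 1.10 ± 0.88 (SE, unadjusted p = 0.238). Gata3 lies at chr2:9857078-9890034 on the minus strand (mm10) and shares 77 exonic bases with 9230102O04Rik on the same strand and 155 with an antisense gene.

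Cd4, the coreceptor of helper T cells, stood at 4.85, 4.56, 3.62 and 4.79 in young replicates 2 to 5, at 1.88, 1.01, 3.30, 1.30 and 1.36 in aged replicates 0 and 2 to 5, and at 7.23, 4.50 and 3.03 in CASIN replicates 1 to 3. All 4 young values were above all 5 aged values, and CASIN replicate 3 was below aged replicate 3. Cd4 was the 1 lineage gene whose young and aged groups did not overlap, where 0.341% of all genes did not overlap with young higher and 1.61% with young lower. Between CASIN-treated and aged HSCs 0 lineage genes did not overlap, against 0.683% of all genes higher and 1.43% lower. The young minus aged difference was 2.68 ± 0.80 (SE, unadjusted p = 0.0066, adjusted p = 0.639, limma) and the CASIN minus aged difference 3.15 ± 0.87 (SE, unadjusted p = 0.0042, adjusted p = 0.876). Without CASIN replicate 1 the latter was 2.00 (unadjusted p = 0.0195), and with the replicate number as a block 1.69 (unadjusted p = 0.126, limma). With the share of genes detected as a covariate the young minus aged difference was 2.08 (unadjusted p = 0.0673) for Cd4 and 3.24 (unadjusted p = 0.0107) for Gata3.

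**Figure D4:**
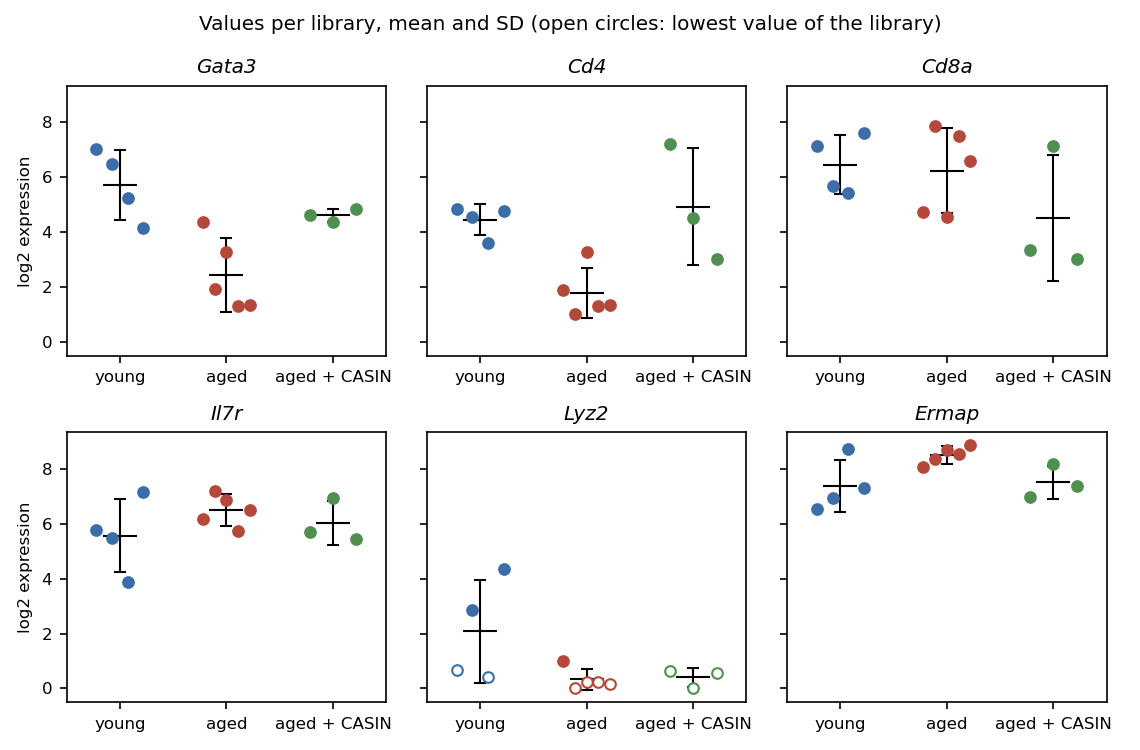
Log2 expression (y axis) of Gata3, Cd4, Cd8a, Il7r, Lyz2 and Ermap in each library of the 3 groups (x axis), with the mean and SD; open circles are libraries in which the gene is at the lowest value. Cd4 is above the aged libraries in all 4 young libraries, while the Cd8a and Il7r groups overlap.

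The scale of low values differed between the groups, and some values of Cd4 and Gata3 lay on low levels. In each library some values above the lowest were each shared by at least 20 genes, and these levels were numbered upwards. A library had 49 to 229 such levels among 412 to 1463 different values for its 22548 genes. Values shared by fewer genes have no level number. The first level above the lowest value was at 1.84 to 4.11 in young libraries, at 0.22 to 1.36 in aged libraries, and at 3.34, 0.037 and 3.03 in CASIN replicates 1 to 3. A gene on the first level thus had a higher log2 value in each young library than in each aged library. Cd4 was on levels 3, 22, 17 and 6 in young replicates 2 to 5 and on levels 18, 27, 15, 1 and 6 in aged replicates 0 and 2 to 5. By level the groups overlapped, and level 6 was worth 4.79 in young replicate 5 and 1.36 in aged replicate 5. In CASIN replicate 3, Cd4 and Cd8a were both on level 1, which they shared with 1032 genes in all.

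Gata3 was on level 2 in young replicate 5 (4.15), on level 42 in young replicate 4 (5.23), and at values shared by fewer than 20 genes in young replicates 2 and 3. In aged replicates 0 and 2 to 5 it was on levels 37, 58, 15, 1 and 6, and in CASIN replicates 1 to 3 on levels 6, 146 and 6. Level 6 was worth 1.36 in aged replicate 5 and 4.64 and 4.85 in CASIN replicates 1 and 3. Lyz2 was on level 3 in young replicates 3 and 5 (2.85 and 4.37) and on level 8 in aged replicate 0 (1.01). By level its aged value was thus the higher one. The part of the scale of low values in the Cd4, Gata3 and Lyz2 differences was not tested. Over all libraries, 42 of 244 detected values of the lineage genes (17.2%) were on levels 1 to 3, that is 23.6% of those in young, 15.2% in aged and 15.6% in CASIN libraries. Genes in general were on these levels too. In young replicate 2, levels 1, 2 and 3 held 852, 362 and 250 of 6078 detected genes. They held 896, 634 and 542 of 16167 in aged replicate 0, and 784, 397 and 262 of 6845 in CASIN replicate 1. In these libraries 5 of 14, 2 of 28 and 3 of 14 detected lineage genes were on them. The shares are therefore not read as a trait of the lineage genes.

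**Figure D5:**
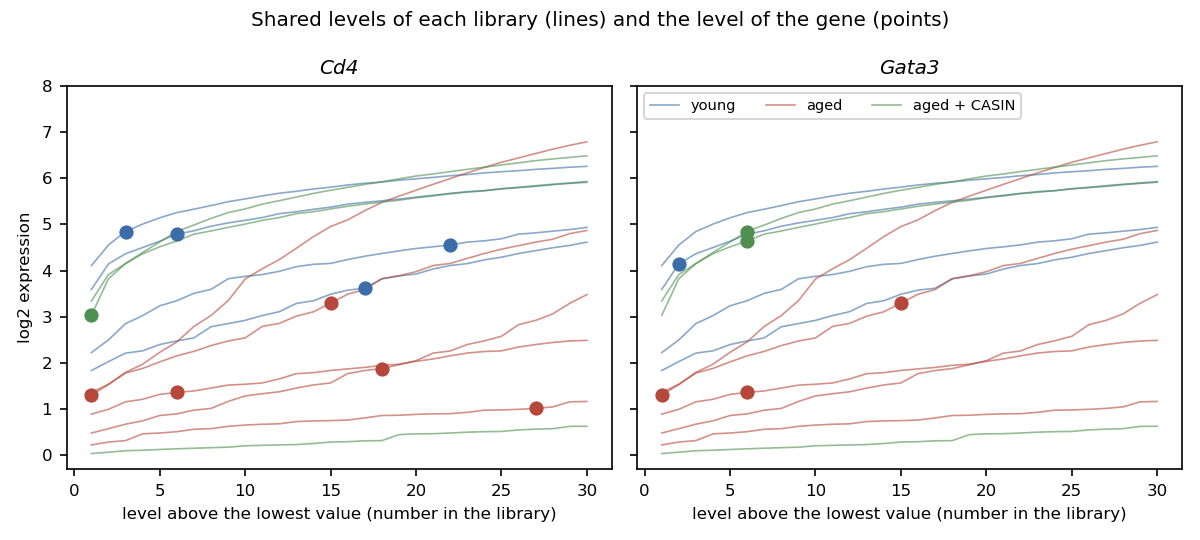
Log2 value (y axis) of the first 30 shared levels of each library (x axis, counted upwards from the lowest value), 1 line per library coloured by group, with points where Cd4 (left) or Gata3 (right) is on one of these levels. The young lines start at 1.84 to 4.11 and the aged lines at 0.22 to 1.36, and the Cd4 points of young and aged libraries overlap in level.

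Of the other T cell genes, Cd8a, the coreceptor of cytotoxic T cells and an antigen of the lineage depletion, was detected in all 12 libraries, at 7.13, 5.67, 5.41 and 7.63 in young replicates 2 to 5, at 4.74, 7.86, 4.54, 7.49 and 6.60 in aged replicates 0 and 2 to 5, and at 3.34, 7.15 and 3.03 in CASIN replicates 1 to 3. Young and aged values covered the same range, with a difference of 0.22 (95% confidence interval -2.06 to 2.49, limma). CASIN replicates 1 and 3 were below every other library, both on level 1, and replicate 2 was not. The CASIN minus aged difference was -1.74 ± 1.12 (SE, unadjusted p = 0.15), and -3.06 without CASIN replicate 2 (unadjusted p = 0.0148, adjusted p = 0.582, limma). Tcf7, a factor of early T cells, was detected in young replicate 3 (5.51), in all 5 aged libraries (0.58 to 3.01) and in all 3 CASIN libraries (6.71, 2.79 and 4.39), a CASIN minus aged difference of 2.70 ± 1.24 (SE, unadjusted p = 0.0527). Cd3e, a chain of the T cell receptor complex, was detected in 1 young, 4 aged and 1 CASIN library, at 0.58 to 5.60.

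Of 34 other lymphoid genes, 2 had a higher and 0 a lower mean in young HSCs against aged ones at an unadjusted p under 0.05 (limma; median log2 difference 0.14), and 0 were higher and 1 lower after CASIN. Ikzf3, a lymphoid zinc finger factor, was at 5.48 to 7.36 in young and at 0.22 to 7.04 in aged libraries (log2 difference 3.97 ± 1.45, SE, unadjusted p = 0.0197). Gzmb, a granzyme of cytotoxic lymphocytes, was detected in young replicates 3 and 4 at 5.15 and 6.81 and at 1.35 at most in aged libraries (2.92 ± 1.17, SE, unadjusted p = 0.0306). Cd22, a B cell surface protein, was lower after CASIN by a log2 difference of -1.97 (unadjusted p = 0.0494), and by -3.07 without CASIN replicate 2 (unadjusted p = 0.0029, limma). Of the 34, 4 (Cd3d, Bcl11b, Cd22 and Cd27) were detected in all 12 libraries, and the T cell genes Cd3d and Bcl11b were above 8 in each. Among further T cell genes, Cd3g, Cd247, Lck and Cd2 were at the lowest value in all 4 young libraries, while Ptcra was detected in all 4. Cd5, an antigen of the lineage depletion on T cells, was at the lowest value in all 12 libraries.

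Markers of other cells that the libraries could hold were, like genes in general, detected more often in aged than in young libraries. Of 12 genes of marrow stroma and endothelium, 1 to 7 were detected in young, 6 to 11 in aged and 2 to 12 in CASIN libraries, and their summed log2 values were 13.6 to 34.5, 25.8 to 45.9 and 20.4 to 32.3. Lepr, Col1a2 and Pdgfra of this list were lower in young than in aged HSCs (log2 difference -4.12, -2.98 and -3.25, unadjusted p = 0.0015, 0.0212 and 0.0478, limma), none was at the lowest value in all libraries, and in young against CASIN-treated HSCs Lepr was lower (log2 difference -4.14, unadjusted p = 0.0036) and Col1a1 higher (3.93, unadjusted p = 0.0369). Without CASIN replicate 2 the latter was 4.28 (unadjusted p = 0.0554, limma). Of 9 genes of antigens used to gate cells out, 3 to 6, 6 to 8 and 3 to 7 were detected. Of 18 stem cell genes, 6 to 10, 13 to 17 and 6 to 18 were detected, and of 18 genes that every cell uses, 7 to 16, 11 to 16 and 12 to 17. Of the latter, 1 was higher and 0 were lower in young than in aged HSCs at an unadjusted p under 0.05 (median log2 difference 0.30), and likewise 1 and 0 after CASIN (median 1.44). Both times it was Actb, with log2 differences of 3.63 and 2.79 (unadjusted p = 0.0017 and 0.0139, limma), while Gapdh differed by -1.08 and -1.09 (unadjusted p = 0.141 and 0.167). Their part in the values of the lineage genes was not tested.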

How the data were processed

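The 12 RNA-seq libraries (4 young, 5 aged, 3 CASIN) were made with a single-cell kit and sequenced as paired ends. The reads were trimmed with trim galore, aligned to mm10 RefSeq with TopHat and passed to Cufflinks. The file deposited by the authors holds quantile-normalised log2 expression of 22548 genes; the step from Cufflinks to these values and the use of strand are not given in the sources used here. Since quantile normalisation equalises the libraries, differences in total RNA cannot be seen. The depth of a library is unknown, which leaves counting error without an estimate.

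The values were used as deposited. One fit of 3 groups was made with limma 3.58.1 (R 4.3.3; lmFit and eBayes, two-sided) over all genes, without a filter, with Benjamini-Hochberg adjustment at 0.05. The test was first tried on the same values shuffled within each gene, with a known amount added to some genes in the young group. The replicates are separate samples per the labels; p-values measure the spread between them. No batch is given. The genes and lists were chosen with earlier results of these data known, and the genes that every cell uses and the shared levels (a value held by at least 20 genes of a library) were added after the data were seen. Values are given for genes with an unadjusted p under 0.05, the 2 with the highest mean in each lineage, and those stained in the sort; of other lineage genes, at most the 4 with the smallest p in a list and comparison. One gene that this rule names is not reported here. Groups did not overlap when they still did not with all libraries at 1 common lowest value.

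The alternatives included 1 lowest value for all libraries, centring on genes that every library detected, filters (detection in 3 or more libraries; mean 3 or more), a pseudocount of 0.1, array weights, limma-trend, detection as a covariate, the replicate number as a block, 2 groups only, and each library left out. Exon positions are from GENCODE M21 (mm10), and promoters from RefSeq (GRCm38.p6). Python 3.11.15 with pandas 2.3.3 and matplotlib 3.10.9 was used for the rest.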

Additional observations from a re-analysis of the deposited data

Results flagged for a closer look

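Among 26 groups of 4 or 5 values examined for a value far from the others, 4 held one. The rule flags about 1 in 20 groups of normally distributed values. Some groups here hold values at the lowest value of their libraries, so this rate does not apply to them. The count of 4 is therefore not set against chance. Gp1bb was at 8.28 in young replicate 4, where the other young libraries were at 0.48 to 0.67, and its exons are largely shared with Sept5. Lyz2 was at 1.01 in aged replicate 0, the others being at 0.018 to 0.23, which are the lowest values of their libraries. Epor was at 0.018, the lowest value, in aged replicate 2, with 4.62 to 6.18 in the other aged libraries. Aged replicate 3 had 19 lineage genes detected, against 26 to 28 in the other aged libraries.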

How the results depend on the processing

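No lineage gene passed an adjusted p of 0.05 in any comparison under any alternative run. The counts of lineage genes with an unadjusted p under 0.05 were 4, 3 and 0 for young minus aged, CASIN minus aged and young minus CASIN. Young minus aged gave 2 of 32 tested with genes detected in at least 3 libraries, 2 of 11 with a mean of at least 3 and 2 of 40 with the replicate block, beside 5.84%, 7.84% and 5.20% of all genes tested. CASIN minus aged gave 5 of 40 after centring and with the detection covariate (5.27% and 5.04% of all genes), and 1 with the block (3.99%), which ended the call of Cd4. Young minus CASIN gave 1 of 40 with a pseudocount of 0.1, limma-trend, the block or only 2 groups, and 3 with array weights or the detection covariate (3.48% to 4.97% of all genes). Leaving out 1 library at a time gave 2 to 4, 1 to 6 and 0 to 2; the 2 came without aged replicate 5, the 1 without aged replicate 5, the 6 without CASIN replicate 2, and the last 2 without young replicate 2 or CASIN replicate 2. Gata3 kept an unadjusted p under 0.05 for young minus aged in all 22 alternatives, Cd4 in 20 and Ermap in 7. The cause of these moves was not tested.

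Same-numbered libraries did not deviate together (r from -0.033 to 0.058 over 8 pairs), so the numbers are not taken as pairs. Centring added 0.45, 0.35 and 0.10 to the differences of the 3 comparisons.

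Signs turned only for differences with an unadjusted p over 0.05. With a common lowest value, Ctsg young minus aged was 0 and Lyz2 CASIN minus aged -0.069. With the detection covariate, Ermap young minus CASIN was 0.12, Lyz2 CASIN minus aged -0.060 and Csf3r CASIN minus aged 0.14. With the replicate block, Cd4 young minus CASIN was 1.02, Gp1ba young minus aged -0.65, Csf3r CASIN minus aged 1.79 and Cd8a young minus aged -0.16. With 1 library left out, young minus aged ran from -0.84 to 1.34 for Gp1ba, -0.36 to 2.02 for Csf3r and -0.21 to 0.62 for Cd8a. CASIN minus aged ran from -0.042 to 0.27 for Lyz2 and -1.70 to 1.99 for Gp1ba, and young minus CASIN from -0.57 to 0.21 for Ermap and -1.41 to 0.69 for Cd4.

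Without counts, a gene at the lowest value cannot be called absent.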
